A study of Rattus norvegicus with 4 samples.

Results

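The cadherin superfamily genes described here are those whose symbols begin with Cdh and a number, or with Pcdh. This rule on the gene symbols picked 84 of the 30708 genes listed for each library, of which 23 were numbered cadherins and 61 were protocadherins. They were measured by RNA-Seq in unmodified S16 cells, an immortalized rat (Rattus norvegicus) Schwann cell line labelled by the submitters as a myelinating Schwann cell. One population was at passage 9, which was the parental line of the rSOX-4 mutants, and the other at passage 39. Both were grown in standard medium with L-glutamine with no other treatment, and each gave 2 libraries labelled as technical replicates, so there were 4 libraries. As an immortalized line grown without axons, S16 cells are a limited model of Schwann cells in nerve.

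Cadherins are calcium-dependent adhesion proteins whose extracellular repeats bind the same or related molecules on the neighbouring cell. Classical cadherins are tied to actin through the catenins, and in Schwann cells they take part in contacts with axons and with other Schwann cells and, in myelinating cells, in the junctions between turns of the cell's own membrane. Protocadherins lack the catenin-binding tail. The clustered protocadherins lie in alpha, beta and gamma gene clusters, in which each alpha and gamma variable exon has its own promoter and is spliced to constant exons shared by the whole cluster, whereas each beta gene is a single exon.

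Levels are given as the deposited RPKM (reads divided by gene length in kilobases and by the library's reads in units of 1000000), which is a scale per length and so allows levels of different genes to be compared. The values of the 4 libraries are always given in the order passage 9 replicate 1, passage 9 replicate 2, passage 39 replicate 1 and passage 39 replicate 2. The library read totals inferred from the RPKM values were 41382234, 35092464, 34246093 and 41083270 in this order. Of the Schwann cell markers, the myelin protein gene Pmp22 had a mean of 1255 RPKM, the receptor genes Ngfr and Erbb3 had means of 283.0 and 89.2 RPKM, and the transcription factor gene Sox10 had a mean of 176.1 RPKM. S100b was more than 2-fold lower in both replicate 2 libraries, at 85.7, 31.8, 86.6 and 32.8 RPKM. Among markers of other cell types, the summed level was 0.339 to 0.481 RPKM for endothelial cells (5 genes, highest mean 0.374 RPKM for Tek, Kdr and Cldn5 listed at 0). It was 2.19 to 3.54 RPKM for epithelial cells (5 genes, highest mean 2.11 RPKM for Krt8, Cldn4 near 0). For macrophages it was 1.48 to 1.62 RPKM (5 genes, highest mean 1.40 RPKM for Cd68, Ptprc and Itgam listed at 0). For melanocytes it was 11.01 to 11.93 RPKM (6 genes, highest mean 8.72 RPKM for Pmel, Tyr listed at 0). The neuron list summed to 136.1 to 165.4 RPKM through Nefl and Tubb3, with Syt1 and Elavl4 listed at 0. The fibroblast list summed to 3349 to 3883 RPKM through Col1a1. Of its other genes, Pdgfra had a mean of 5.35 RPKM and Col1a2 of 0.339 RPKM, Thy1 was listed at 0 and Dcn and Lum were near 0. The part of these markers in the results was not tested. In such bulk RNA, fewer cells that express a gene and less RNA per cell cannot be told apart.

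The libraries did not pair as labelled. Over the 16 members whose mean was 1 RPKM or more, the labelled technical replicates differed by a median of 0.45 at passage 9 and 0.38 at passage 39 on the log2(RPKM + 1) scale, without regard to direction. Libraries that carried the same replicate number differed between the passages by 0.05 for replicate 1 and 0.06 for replicate 2. Over all 11025 genes at or above this mean the same medians were 0.21 and 0.21 within a passage, and 0.04 and 0.04 between passages at the same number. The authors' methods say that technical replicates were pooled and spread over sequencing lanes, but the labels give no lane for a library. The cause was not tested. The members described below are therefore given library by library, with differences both between passages and between replicate numbers. With 1 population per passage there is no replicate check of a difference, so no test was run, and intervals are 95% intervals that cover counting error only.

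Most of the family was at low levels, as were most genes, since 11025 of all 30708 had a 4-library mean of 1 RPKM or more. Of the 84 members, 16 had a 4-library mean of 1 RPKM or more, 25 lay between 0.1 and 1 RPKM, 34 were above 0 but under 0.1 RPKM, and 9 were listed at 0 in every library. The 9 were Cdh4, Cdh5, Cdh7, Cdh12, Cdh18, Cdh26, Pcdh11x, Pcdha13 and Pcdhb1. All genes listed at 0 throughout shared rank 20334 of 30708 by mean level, so many genes outside the family were at 0 too. Cdh5 encodes VE-cadherin of endothelial junctions. A value of 0 is read only as listed at 0, because 1 of 73 ribosomal protein genes was also listed at 0 throughout, and no length could be recovered for these genes, so no upper limit is given. The 23 numbered cadherins summed to 164.8 ± 0.605 RPKM (SD, n = 2 populations), with 174.1, 156.3, 171.8 and 156.8 RPKM in the single libraries. The 61 protocadherins summed to 178.0 ± 0.270 RPKM, with 205.4, 150.2, 206.1 and 150.3 RPKM. The SD between population means does not hold the spread between the replicate numbers, which was 1.10-fold for the cadherins and 1.37-fold for the protocadherins. The 4 highest members, Pcdhgc3, Cdh13, Cdh2 and Pcdh1, made up 86.2% of the summed RPKM of all 84.

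**Figure D1:**
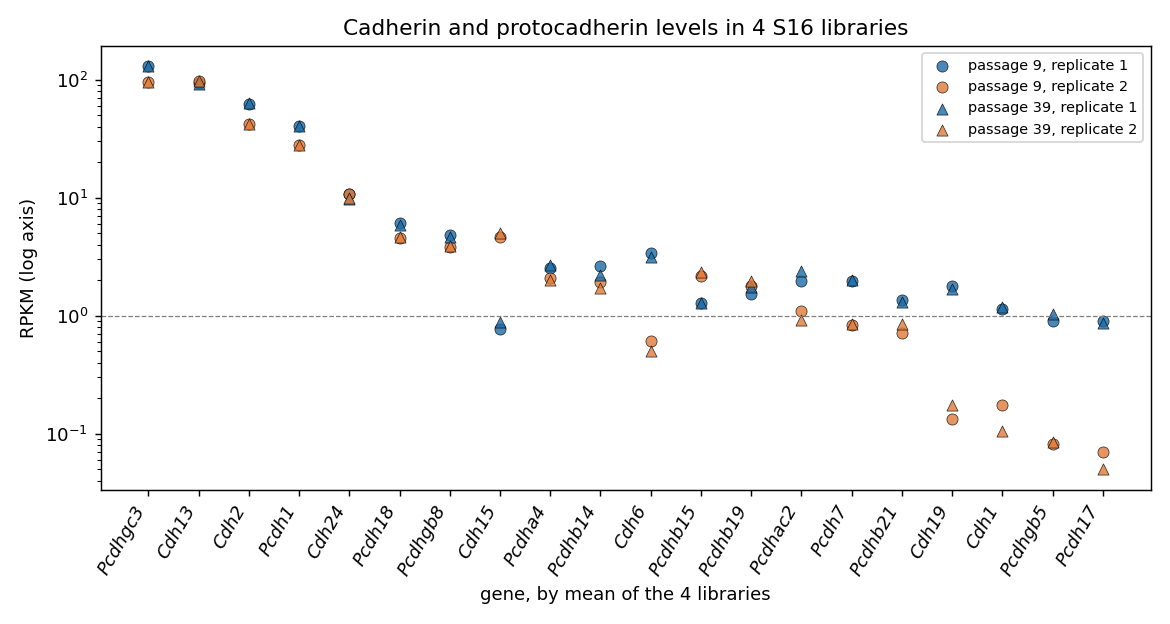
RPKM on a log axis of the 16 members whose mean was 1 RPKM or more and of Cdh19, Cdh1, Pcdhgb5 and Pcdh17, in order of their means, with 1 point per library (circles for passage 9, triangles for passage 39, blue for replicate 1, orange for replicate 2). Points of one colour lie close together for each gene, and for Cdh15, Cdh6, Cdh19, Cdh1, Pcdhgb5 and Pcdh17 the blue and orange points lie more than 5-fold apart.

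Promoters are shown for the members on which the results turn. Cdh6, Cdh19 and Pcdh17 had some of the largest decreases in the replicate 2 libraries among members with a promoter in the table, Cdh15 was the member with the largest increase, and Pcdhgc3 had the highest level. The sequences are from RefSeq (GRCr8, a later build than that of the deposited values), 5′ to 3′ on the gene's strand, from 250 bases before to 50 bases after the start, in lower case. Capitals mark the motifs searched on both strands, which were CAGGTG (a type of E-box, bound by Snail and Zeb repressors), ACAAAG (a SOX-type motif) and TATAAA (the TATA box), with any overlaps between motifs allowed.
Cdh6 (chr2:63952238-63952537, minus strand): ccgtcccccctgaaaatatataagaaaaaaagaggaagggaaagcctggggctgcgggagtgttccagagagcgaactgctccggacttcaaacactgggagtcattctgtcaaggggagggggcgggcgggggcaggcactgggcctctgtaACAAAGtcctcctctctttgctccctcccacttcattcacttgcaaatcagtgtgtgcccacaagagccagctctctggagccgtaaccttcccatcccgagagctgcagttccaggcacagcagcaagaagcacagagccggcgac
Cdh19 (chr13:28533704-28534003, minus strand): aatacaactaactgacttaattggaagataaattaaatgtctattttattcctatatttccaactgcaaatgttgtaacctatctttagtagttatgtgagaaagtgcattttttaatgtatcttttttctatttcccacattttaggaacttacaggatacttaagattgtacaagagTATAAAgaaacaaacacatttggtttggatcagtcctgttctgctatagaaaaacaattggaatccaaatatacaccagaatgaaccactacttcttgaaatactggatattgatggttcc
Pcdh17 (chr15:66632892-66633191, plus strand): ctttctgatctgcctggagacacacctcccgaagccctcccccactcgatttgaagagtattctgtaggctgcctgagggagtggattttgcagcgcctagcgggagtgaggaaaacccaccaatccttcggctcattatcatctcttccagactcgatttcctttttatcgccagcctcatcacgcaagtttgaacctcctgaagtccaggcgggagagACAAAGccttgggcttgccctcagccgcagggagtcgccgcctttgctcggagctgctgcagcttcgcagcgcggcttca
Cdh15 (chr19:67814407-67814706, plus strand): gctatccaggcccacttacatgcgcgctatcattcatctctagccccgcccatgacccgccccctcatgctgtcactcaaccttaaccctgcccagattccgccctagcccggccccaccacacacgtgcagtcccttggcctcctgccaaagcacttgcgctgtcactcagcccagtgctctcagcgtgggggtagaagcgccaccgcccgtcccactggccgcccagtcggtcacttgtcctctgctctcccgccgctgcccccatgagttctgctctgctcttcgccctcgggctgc
Pcdhgc3 (chr18:29883995-29884294, plus strand): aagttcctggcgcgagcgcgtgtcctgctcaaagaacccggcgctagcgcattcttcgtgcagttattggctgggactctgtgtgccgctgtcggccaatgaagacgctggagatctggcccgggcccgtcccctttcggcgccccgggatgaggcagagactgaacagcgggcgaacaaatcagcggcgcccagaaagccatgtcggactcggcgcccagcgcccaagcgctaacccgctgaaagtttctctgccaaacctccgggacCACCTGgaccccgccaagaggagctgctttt
The capitals are an ACAAAG match in Cdh6 and Pcdh17, a TATAAA match in Cdh19, and in Pcdhgc3 the reverse complement of CAGGTG. Cdh15 held none of the 3 motifs. The Cdh19 window stood out from the other 4 in base composition, with 30.0% G and C and 0 CpG dinucleotides. The other windows held 57.3% G and C with 10 CpG (Cdh6), 56.7% with 16 CpG (Pcdh17), 65.0% with 18 CpG (Cdh15) and 63.3% with 28 CpG (Pcdhgc3), whereas the medians were 46.7% and 8 CpG over the 53 members with a promoter in the table and 51.7% and 7 CpG over all 33469 promoters. CAGGTG was found in 5 of the 53 member promoters (9.43%) and in 18.8% of all promoters, ACAAAG in 15 (28.3%) against 18.8%, and TATAAA in 8 (15.1%) against 14.2%. These matches describe the letters of the windows and nothing about binding.

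Of the classical type I cadherins, Cdh2, which encodes N-cadherin, the main classical cadherin of Schwann cells and their precursors, was the highest. It was at 62.6, 41.7, 62.9 and 42.4 RPKM. Both replicate 2 libraries lay below both replicate 1 libraries, and the passages overlapped. The ratio of replicate 1 to replicate 2 was 1.499 (95% interval 1.46 to 1.54) at passage 9 and 1.48 (1.44 to 1.53) at passage 39.

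Cdh1 encodes E-cadherin, which in nerve is known from the autotypic junctions of myelinating Schwann cells. It was at 1.15, 0.175, 1.19 and 0.105 RPKM, from 209, 27, 179 and 19 recovered reads. The replicate 1 libraries were far above the replicate 2 libraries in both passages, by 6.56-fold (4.38 to 10.2) at passage 9 and 11.3-fold (7.03 to 19.2) at passage 39. The mean level of E-cadherin mRNA in S16 cells was thus 0.655 RPKM, and Cdh2 was at 52.4 RPKM. Among epithelial markers, Krt8 went the other way, at 1.46, 2.81, 1.52 and 2.66 RPKM, and Epcam was at 0.712, 0.644, 0.640 and 0.800 RPKM.

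Cdh15, which encodes M-cadherin, a cadherin of muscle satellite cells and myoblasts, showed the opposite order to Cdh1 and Cdh2. It was at 0.776, 4.62, 0.890 and 4.98 RPKM, from 118, 595, 112 and 751 reads. Both replicate 2 libraries were above both replicate 1 libraries, with ratios of replicate 2 to replicate 1 of 5.95 (4.87 to 7.31) at passage 9 and 5.59 (4.58 to 6.88) at passage 39. As a result the second-ranked classical type I cadherin was Cdh1 in the replicate 1 libraries and Cdh15 in the replicate 2 libraries. Cdh3 (P-cadherin) had between 6 and 16 reads per library, and Cdh4 (R-cadherin) was listed at 0.

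Of the 13 type II cadherins, Cdh24 was the highest and varied little, at 10.66, 10.68, 9.79 and 10.003 RPKM. It was slightly lower at passage 39 in both replicate numbers, by a ratio of 0.919 (0.851 to 0.991) in replicate 1 and 0.936 (0.869 to 1.01) in replicate 2, and only the first of these intervals left out 1. Cdh6, which encodes K-cadherin and is known from neural crest and early glia, was at 3.37, 0.606, 3.14 and 0.504 RPKM, from 499, 76, 384 and 74 reads. The replicate 1 libraries were above the replicate 2 libraries by 5.57-fold (4.37 to 7.18) at passage 9 and 6.23-fold (4.84 to 8.10) at passage 39.

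Cdh19, known for its expression in Schwann cell precursors and ensheathing glia, was at 1.77, 0.133, 1.67 and 0.175 RPKM, from 347, 22, 270 and 34 reads. It was 13.4-fold (8.69 to 21.6) higher in replicate 1 than in replicate 2 at passage 9 and 9.53-fold (6.65 to 14.0) higher at passage 39, while the passage means differed by 0.02 on the log2(RPKM + 1) scale. Another type II cadherin, Cdh20, had 21, 5, 16 and 1 reads. Cdh11 had 9 and 5 reads in the replicate 1 libraries and 0 in both replicate 2 libraries. Cdh24 therefore made up 77.4% of the summed type II level, and the other type II genes together were at 5.41, 0.818, 5.08 and 0.710 RPKM.

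Cdh13 encodes T-cadherin, which is held in the membrane by a lipid anchor and has no cytoplasmic tail. It was the second-highest member, at 93.4, 98.1, 91.9 and 98.4 RPKM. Both replicate 2 libraries lay above both replicate 1 libraries, by ratios of 1.05 (1.02 to 1.08) and 1.07 (1.04 to 1.10). This order was within the shift of all genes between the numbers, whose median was 0.10 on the log2(RPKM + 1) scale, against 0.08 for Cdh13, and it turned when the libraries were scaled to a common sum or by the median ratio. Cdh24 also turned under both scalings, and the other 49 members with at least 20 reads kept their direction between the numbers.

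Of the non-clustered protocadherins, Pcdh1, a delta-1 protocadherin, was the highest, at 40.6, 27.8, 40.6 and 28.2 RPKM. Replicate 1 was above replicate 2 by 1.46-fold (1.40 to 1.53) at passage 9 and 1.44-fold (1.38 to 1.502) at passage 39, close to the ratios of Cdh2. Pcdh7, also of the delta-1 group, was at 1.96, 0.825, 2.00 and 0.851 RPKM, with ratios of 2.37 (2.07 to 2.73) and 2.35 (2.06 to 2.69). Pcdh18, a delta-2 protocadherin, was at 6.12, 4.59, 5.90 and 4.66 RPKM.

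Pcdh17, a delta-2 protocadherin known from axon and synapse development, was also far lower in the replicate 2 libraries. It was at 0.905, 0.0692, 0.870 and 0.0498 RPKM, from 293, 19, 233 and 16 reads, so that the replicate 1 libraries were 13.1-fold (8.22 to 22.0) and 17.5-fold (10.5 to 31.1) higher. Pcdh20 was at 0.355, 0.0880, 0.434 and 0.150 RPKM, with ratios of 4.03 (2.33 to 7.40) and 2.89 (1.89 to 4.51). Pcdh17, Pcdh20 and the other members under 1 RPKM named here, other than Cdh1, Cdh5 and Cdh19, were singled out after their values were seen.

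The clustered protocadherins numbered 49, with 15 alpha, 19 beta and 15 gamma members. Their summed level was 155.3, 116.8, 156.2 and 116.3 RPKM, and Pcdhgc3 alone made up 83.1% of it. In the RefSeq table, 12 of 13 gamma members ended at one same base and 14 alpha members were listed as other names of Pcdha4, whereas none of the neighbouring beta genes overlapped. A read in an exon shared by several members cannot be tied to one of them. The recovered lengths were 2355 to 2562 bp for the 14 alpha members with one, 1317 to 4574 bp for the 15 gamma members and 1042 to 9546 bp for 18 beta members. How shared exons entered the deposited values of the alpha and gamma members is not given in the sources used here, so their levels are uncertain.

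Pcdhgc3, a C-type gamma isoform, was the highest of all 84 members and stood at rank 472 among all genes. It was at 130.4, 96.0, 130.4 and 95.7 RPKM, from 13419, 8380, 11109 and 9777 reads. The passages hardly differed at a given number, and replicate 1 was above replicate 2 by 1.36-fold (1.32 to 1.40) at passage 9 and 1.36-fold (1.33 to 1.40) at passage 39. It was the last of the 13 gamma members in their order on the chromosome, and it made up 92.9% of the summed gamma level. The other 14 gamma members together were at 8.93, 8.32, 9.26 and 8.23 RPKM.

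Among them, Pcdhgb8 was the highest, at 4.83, 3.86, 4.61 and 3.87 RPKM, and lay 2 places before Pcdhgc3 in the cluster. Pcdhgb5 was at 0.905, 0.0814, 1.04 and 0.0849 RPKM, from 118, 9, 112 and 11 reads, with ratios of replicate 1 to replicate 2 of 11.1 (5.66 to 24.9) and 12.2 (6.57 to 25.2). The RefSeq table lists Pcdhgb5 as another name of Pcdhgb8, while the deposited values list both as separate genes with different patterns, so the identity of the Pcdhgb5 entry is uncertain. Of the 15 gamma members, all with at least 20 reads, 7 had both replicate 2 libraries below both replicate 1 libraries and 5 had them above, against 31.8% and 50.1% of all 14481 genes with at least 20 reads. Pcdhga1 was at 0.659, 1.09, 0.724 and 0.975 RPKM and Pcdhga7 at 0.440, 0.974, 0.710 and 0.906 RPKM, and both replicate 2 libraries lay above both replicate 1 libraries, with counting intervals that left out 1 at passage 9 and held 1 at passage 39.

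**Figure D2:**
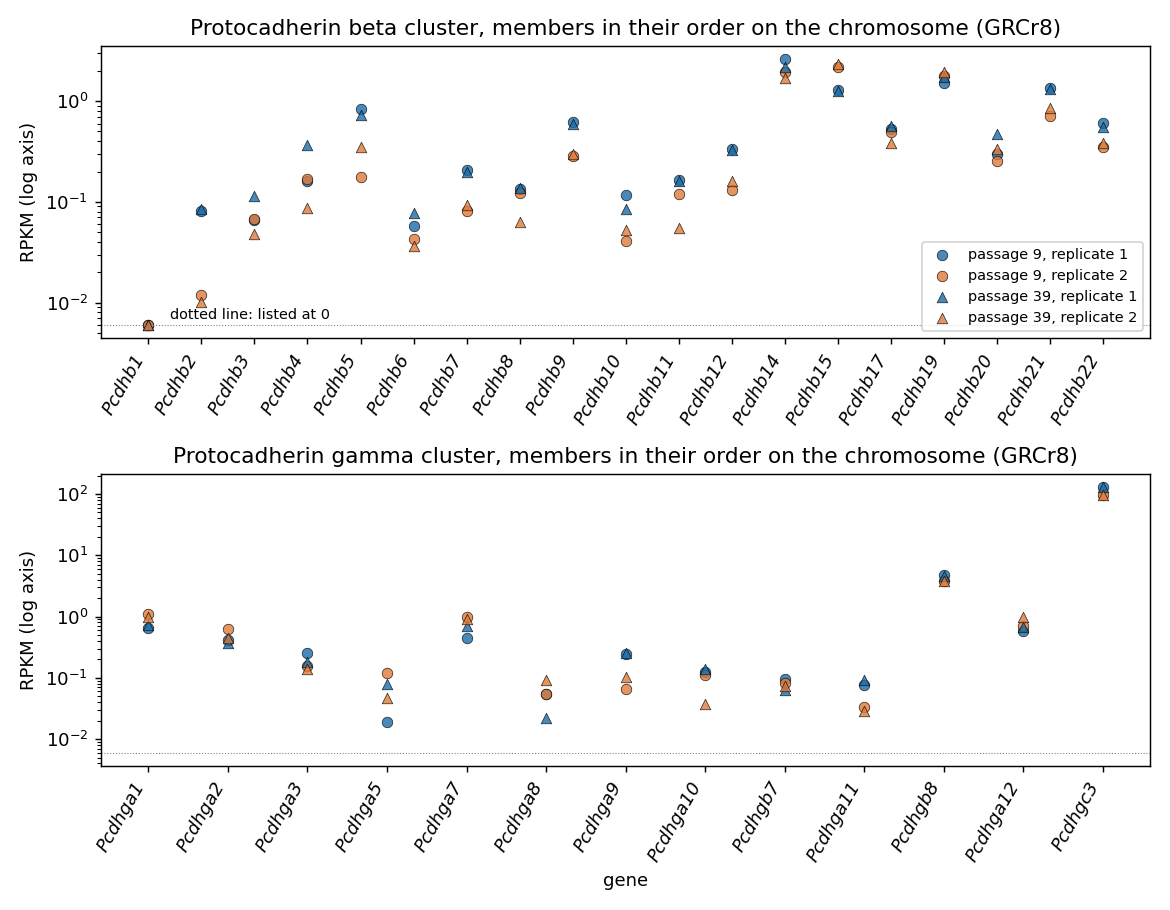
RPKM on a log axis of the 19 beta members (top) and the 13 gamma members in the RefSeq table (bottom), in their order on the chromosome, with 1 point per library (colours and symbols as named in the legend, and points on the dotted line for a gene listed at 0). The 4 beta members whose mean was 1 RPKM or more stand at places 13, 14, 16 and 18 of 19, and Pcdhgc3, the last gamma member, stands more than 10-fold above all other gamma members.

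The beta members summed to 10.998, 8.97, 10.992 and 9.23 RPKM. Unlike the gamma cluster no gene dominated, since the highest, Pcdhb14, made up 21.05% of the sum and the 4 highest 66.7%. Pcdhb14 was at 2.61, 1.95, 2.19 and 1.71 RPKM, Pcdhb19 at 1.53, 1.78, 1.76 and 1.95 RPKM, and Pcdhb21 at 1.36, 0.713, 1.31 and 0.851 RPKM. Pcdhb14 and Pcdhb21 were lower in both replicate 2 libraries. Pcdhb19 was slightly higher there, with ratios of replicate 2 to replicate 1 of 1.16 (0.993 to 1.37) and 1.11 (0.956 to 1.30), and both intervals held 1.

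Pcdhb15 had the clearest increase in the beta cluster, at 1.28, 2.18, 1.28 and 2.36 RPKM, with ratios of replicate 2 to replicate 1 of 1.70 (1.40 to 2.08) and 1.85 (1.51 to 2.27). Its neighbour Pcdhb14 was lower in both replicate 2 libraries. Of the 17 beta members with at least 20 reads, 12 had both replicate 2 libraries below both replicate 1 libraries and 2 had them above, which were Pcdhb15 and Pcdhb19, against the same 31.8% and 50.1% of all genes.

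The alpha members summed to 4.97, 3.48, 5.52 and 3.14 RPKM, and Pcdha4 and Pcdhac2 made up 91.9% of this. Pcdha4 was at 2.55, 2.09, 2.71 and 2.01 RPKM. Pcdhac2, the C-type alpha isoform nearest to the constant exons, was at 1.97, 1.10, 2.37 and 0.912 RPKM, with ratios of replicate 1 to replicate 2 of 1.79 (1.40 to 2.30) and 2.60 (2.03 to 3.35). Both replicate 2 libraries were below both replicate 1 libraries in each of the 3 alpha members with at least 20 reads, against 31.8% of all 14481 genes. With only 3 members this says little about the cluster.

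Between the passages as labelled the family hardly moved. Because the libraries did not pair as labelled, this holds only if the passage labels are right. None of the 16 members at 1 RPKM or more differed 2-fold on the log2(RPKM + 1) scale between the means of passage 39 and passage 9, against 1 of all 11025 genes (0.00907%), and their differences ran from -0.15 for Pcdhb14 to 0.11 for Pcdhb19. By the plain RPKM ratio, chosen after the data were seen, 0 of the 51 members with at least 20 recovered reads differed 2-fold in the same direction between the passages in both replicate numbers, against 0.207% of 14481 genes. The 95% interval of the ratio of passage 39 to passage 9 left out 1 in 2 of 51 members (3.92%) in replicate 1, against 5.69% of 14481 genes, and in 3 of 51 (5.88%) in replicate 2, against 7.54%, so these shares were near those of all genes. The genes were Cdh24 (below) and Pcdhb4 (above) in replicate 1, and Pcdhb17 (below), Pcdhb5 and Pcdhga12 (above) in replicate 2. None of these 5 genes did so in both numbers. Pcdhb4, Pcdhb5 and Pcdhb17 had opposite directions, with 2.27 (1.23 to 4.37), 0.883 (0.631 to 1.23) and 1.06 (0.864 to 1.30) in replicate 1. In replicate 2 they were at 0.513 (0.198 to 1.25), 1.98 (1.07 to 3.80) and 0.767 (0.611 to 0.962).

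Between replicate numbers, most members were lower in replicate 2. On the log2(RPKM + 1) scale 1 of 16 members was 2-fold lower (Cdh6, -1.45), against 0.726% of 11025 genes, and 1 of 16 was 2-fold higher (Cdh15, 1.66), against 0.363%. Both reached the mean of 1 RPKM only through the number in which they were high, so the filter and the call used the same values. The median difference of the 16 members was -0.29, and that of all 11025 genes was 0.10. When the libraries were scaled to a common sum or by the median ratio, the latter median was -0.03 or 0.03. The log2(RPKM + 1) scale understates the differences of low genes such as Cdh1 and Pcdh17.

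By the plain RPKM ratio, 14 of 51 members (27.5%) were at least 2-fold lower in replicate 2 in both passages, against 3.36% of 14481 genes, and 1 of 51 (Cdh15, 1.96%) was higher, against 1.71%. The 14 were Cdh1, Cdh6, Cdh19, Cdh20, Pcdh7, Pcdh8, Pcdh17, Pcdh20, Pcdhb5, Pcdhb7, Pcdhb12, Pcdhga9, Pcdhga11 and Pcdhgb5, of which Pcdhb7, Pcdhga11 and Pcdh8 had 1 to 12 reads per library. Cdh20, Pcdhb7, Pcdhga11 and Pcdh8 reached 20 reads mainly through the replicate 1 libraries, so there the filter and the call used the same values. A level under 1 RPKM goes with this share in all genes. Among genes whose mean was 1 RPKM or more, 2 of 16 members (12.5%) were 2-fold lower against 1.34% of all and 1 (6.25%) higher against 0.745%, and among genes under 1 RPKM with at least 20 reads, 12 of 35 members (34.3%) against 9.72%. Cdh6, Pcdh7 and Cdh15 reached the mean of 1 RPKM only through the number in which they were high. For them the filter and the call used the same values, so these shares are no independent support. Just inside the 2-fold limit was Pcdhb12, whose ratios of replicate 1 to replicate 2 were 2.54 and 2.04, and just outside was Pcdhb9 with 2.15 and 1.97. The other 33 of the 84 members had under 20 reads in all or no recovered reads and are not part of these counts.

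**Figure D3:**
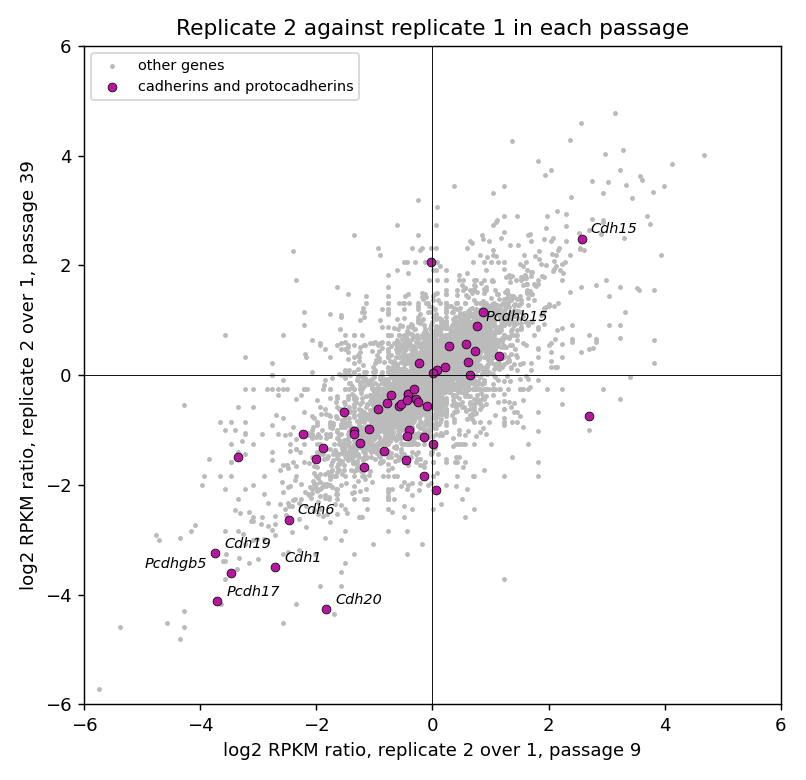
The log2 RPKM ratio of replicate 2 to replicate 1 at passage 9 (x axis) and at passage 39 (y axis), for the 51 members with at least 20 recovered reads (purple) and the other genes above 0 in all libraries (grey). Cdh19, Cdh1, Cdh6, Pcdhgb5 and Pcdh17 lie far to the lower left in both passages and Cdh15 to the upper right.

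The order of the libraries was the same in both passages for most members. Both replicate 2 libraries lay below both replicate 1 libraries in 33 of 51 members (64.7%), against 31.8% of 14481 genes, and above them in 11 of 51 (21.6%), against 50.1%. The split of all genes depended on the scaling, with 45.4% below and 33.7% above after scaling to a common sum and 39.6% and 40.4% after median ratio scaling, whereas the members had 74.5% and 11.8%, and 68.6% and 13.7%. In both passages the interval of the ratio of replicate 2 to replicate 1 lay below 1 in 22 of 51 members (43.1%), against 19% of 14481 genes, and above 1 in 3 (5.88%), against 33.1%. The 3 were Cdh13, Cdh15 and Pcdhb15. The minimum of reads was on the sum over all libraries, so a member could enter through the replicate number in which it was high. The 33 held Cdh20, Pcdhb7, Pcdhga11 and Pcdh8, named above for this, and the 22 held Cdh20. Of the 11, Cdh3 had most of its reads in the replicate 2 libraries. For such members the filter and the call used the same values, also in the cluster counts above. The part of this filter in the shares was not tested. The median recovered length was 2918 bp for the 51 members and 2614 bp for the 14481 genes, and the part of length in these shares was not tested.

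**Figure D4:**
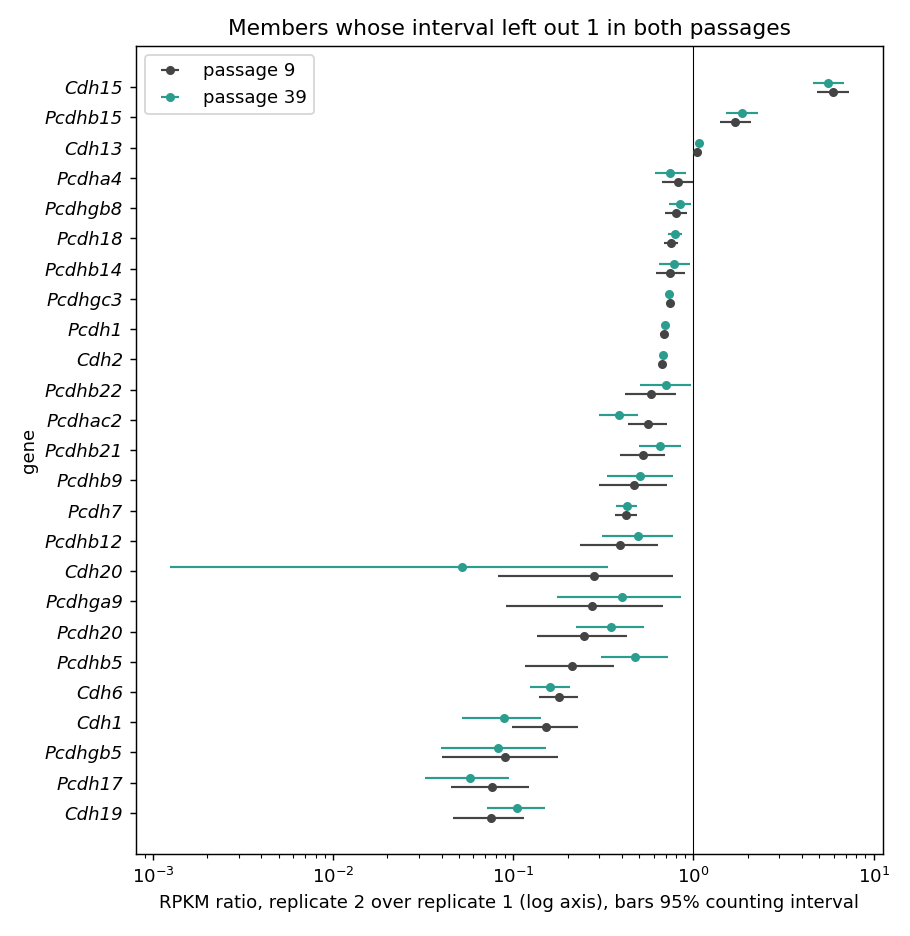
RPKM ratio of replicate 2 to replicate 1 on a log axis, with exact 95% counting intervals as bars, at passage 9 (dark) and passage 39 (green) for the 25 members whose interval left out 1 in the same direction in both passages. The ratios run from 0.0748 (Cdh19) to 5.95 (Cdh15) at passage 9, and 22 of the 25 genes lie left of the line at 1.

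Genes that act with cadherins were counted from lists. Of 14 catenins and relatives, only some of which link classical cadherins to actin, 9 were at 1 RPKM or more, with summed levels of 363.2 to 409.8 RPKM. The 4 highest means were 133.3 RPKM for Ctnnb1 (beta-catenin), 92.0 RPKM for Ctnna1 (alpha-catenin), 75.6 RPKM for Ctnnd1 (p120-catenin) and 24.9 RPKM for Ctnnal1. None of the 14 passed 2-fold between the numbers or passages on the log2(RPKM + 1) scale. By the plain ratio in both passages, 2 of the 12 with at least 20 reads were lower in replicate 2, against 3.36% of 14481 genes. These were Ctnna3, at 1.40, 0.555, 1.31 and 0.602 RPKM, and Ctnnd2, at 0.564, 0.0752, 0.534 and 0.119 RPKM. Both had means under 1 RPKM, where the share of all genes with at least 20 reads was 9.72%. All 9 scaffold and nectin genes in the files were at 1 RPKM or more, led by Lima1 (93.9 RPKM), Vcl (31.4 RPKM), Pvrl3 (16.8 RPKM) and Vezt (12.7 RPKM), and 0 of 9 passed 2-fold on either scale. All 9 genes for cleavage and trafficking of cadherins were at 1 RPKM or more, led by Ctnnd1, which is in both lists, Arf6 (41.7 RPKM), Rab11a (28.4 RPKM) and Adam10 (19.7 RPKM), with 0 of 9 past 2-fold on either scale.

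Among 24 cadherins outside the numbered families, 8 were at 1 RPKM or more. The highest were the giant cadherin Fat1, at 116.6, 77.9, 117.1 and 78.1 RPKM, the calsyntenin Clstn1, at 73.7, 99.8, 74.6 and 98.0 RPKM, Celsr2, a seven-pass cadherin of planar polarity with a mean of 11.3 RPKM, and Cdhr2 with a mean of 3.13 RPKM. Fat1 was lower and Clstn1 higher in both replicate 2 libraries, and 0 of 24 passed 2-fold on the log2(RPKM + 1) scale. By the plain ratio in both passages, 2 of the 12 with at least 20 reads did, and were singled out for that. Cdhr4 was lower in the replicate 2 libraries, at 2.25, 0.824, 2.07 and 0.938 RPKM, and Cdhr5 was higher, at 0.624, 1.91, 0.552 and 1.74 RPKM. By the same rule 3.36% of 14481 genes were lower and 1.71% higher. The desmosomal cadherins Dsc1, Dsc2, Dsc3, Dsg1, Dsg2 and Dsg3 were listed at 0 in every library.

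Of 7 transcription factors known as repressors of cadherin genes, 3 were at 1 RPKM or more. Snai2 was at 63.0, 62.1, 60.8 and 64.0 RPKM, Zeb2 at 58.2, 41.7, 58.5 and 42.7 RPKM and Zeb1 at 15.1, 10.009, 14.8 and 10.3 RPKM, while Twist2 had a mean of 0.799 RPKM and Twist1 was listed at 0. Zeb1 and Zeb2 were lower in both replicate 2 libraries, as were 31.8% of 14481 genes with at least 20 reads, and Snai2 overlapped between the numbers. A relation of these factors to the cadherin levels was not tested. Of 6 genes known to act on the protocadherin clusters, 5 were at 1 RPKM or more, led by the cohesin subunit Rad21 (114.9 RPKM), the insulator protein Ctcf (37.8 RPKM), Smchd1 (26.6 RPKM) and Wiz (12.8 RPKM). None of the 7 or of the 6 passed 2-fold between the numbers on either scale, or between the passages on the log2(RPKM + 1) scale.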

How the data were processed

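Unmodified S16 cells at passage 9 and passage 39 were profiled by RNA-Seq, with 2 libraries each. The authors isolated poly(A) RNA, made TruSeq libraries, sequenced single ends, aligned reads with STAR to the rn5 genome, used reads with a unique position, and assigned them to genes with HTSeq, strand disabled. They deposited 1 RPKM value per gene symbol and library, and the lengths and totals behind them are not given in the sources used here. The methods name Ensembl gene models and the names of the deposited files point to RefSeq, which bears on lengths and shared exons. HTSeq leaves out reads that overlap several genes by default. The authors tested differences with DESeq2 on counts, which was not repeated here.

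Library totals, gene lengths and whole reads were recovered from the ratios of RPKM values, for 18095 of 18114 genes above 0 in at least 2 libraries (lengths whole within 0.001 bp). They are the smallest whole numbers that fit, so a common factor can stay hidden and intervals may then be too wide. The recovery was tested on simulated data. Recovered totals were 34246093 to 41382234 reads per library, which is more than the authors' methods state per cell line. The reason is not known, and if fewer reads lay behind the values the intervals are too narrow. Intervals are exact Clopper-Pearson intervals (for ratios, of the share of 2 libraries' reads) and hold for counting error alone, because the libraries had no molecular identifiers and PCR copies count as reads. Differences are of log2 of mean RPKM plus a pseudocount of 1. Genes needed a mean of 1 RPKM for this scale and 20 recovered reads for plain ratios. Members were named at a mean of 1 RPKM or more or past 2-fold, with Cdh1, Cdh2, Cdh5 and Cdh19 at any level, and of each companion list the 4 highest and any past 2-fold. The members and lists were chosen with earlier results of these data known. Of the members, 68 matched the RefSeq table (GRCr8) by symbol and 53 had a promoter. Alternatives were 2 other scalings, other minimums of RPKM, a pseudocount of 0.1 and each library left out. Python 3.11.15, numpy 2.4.6, pandas 2.3.3, scipy 1.17.1 and matplotlib 3.10.9 were used. The mutant and clonal libraries were not analysed here. Some marker genes are not reported here.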

Additional observations from a re-analysis of the deposited data

How the results depend on the processing

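No paired analysis was possible because each passage was 1 population and no test was fitted. The number of members with a mean of at least 1 RPKM, 16 as deposited, was 30 after scaling each library to a common sum of 1000000, 41 when 0.1 RPKM was the limit and 6 when it was 5 RPKM. The summed level was 164.8 RPKM for the numbered cadherins and 178.0 RPKM for the protocadherins. Scaling to a common sum, which changes the unit, gave 497.5 and 540.3, and median ratio scaling gave 178.6 for the protocadherins. Leaving out each library in turn gave 160.3 to 169.2 RPKM and 164.0 to 191.9 RPKM. The number of members 2-fold apart between passages was 0, and 0 to 1 with each library left out, with 1 when passage 9 replicate 2 was left out, which leaves the numbers unbalanced between the passages. The number 2-fold apart between replicate numbers was 2. It was 8 after scaling to a common sum, 0 with a minimum of 5 RPKM, 4 with a pseudocount of 0.1 and 15 by the plain ratio with at least 20 reads in place of the minimum of 1 RPKM, which also brought in more members (51 in place of 16). With the minimum of 1 RPKM kept, the plain ratio gave 3. Both were chosen after the data were seen. No called difference between replicate numbers turned its direction under these alternatives. The 1 member past 2-fold between passages with passage 9 replicate 2 left out was Cdh15, at 1.15. It was at -0.97 with passage 39 replicate 2 left out, so its direction turned. Between replicate numbers the log2 differences of Cdh6 ranged from -2.36 to -1.41 over the alternatives, those of Cdh15 from 1.60 to 2.39, those of Cdh1 from -2.40 to -0.88 and those of Cdh19 from -2.84 to -1.21. Depth limits the members under about 20 reads, whose intervals span several fold.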
